A study of Mus musculus with 2 samples.

Results

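The NFAT transcription factors, the phosphatase calcineurin that switches them on, and the inhibitors of calcineurin were followed in mouse CD4+ T cells given an antigen receptor signal. The 10 members were chosen by gene symbol from what they are known to do: the NFAT factors Nfatc1, Nfatc2, Nfatc3 and Nfat5, the calcineurin catalytic subunits Ppp3ca, Ppp3cb and Ppp3cc, and the calcineurin inhibitors Rcan1, Rcan3 and Cabin1. The choice was made with earlier results of these data known. The members are 10 of the 9702 genes to which a splice junction could be assigned, and each had at least 20 junction reads over the libraries.

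The study sequenced RNA from CD4+ T cells taken from the spleens of male mice of the C57BL/6JJcl strain, with 4 spleens pooled and the cells enriched on BD IMag magnetic particles. One culture, called stimulated here, was held for 4 h on plates carrying immobilised anti-CD3e and anti-CD28 antibodies at 2 and 2 ug/ml, and the mock culture was held for 4 h without them. The labels name no other genetic change or agent in either culture. There was 1 library per group, so no difference has a replicate check and no p-value is given, and all intervals cover counting error only.

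Calcineurin is a calcium- and calmodulin-dependent serine/threonine phosphatase made of a catalytic A subunit and a regulatory B subunit. When the antigen receptor raises calcium in a T cell, calcineurin strips phosphates from the cytoplasmic NFAT proteins, which then enter the nucleus and, often beside AP-1 proteins, switch on cytokine genes such as Il2. Cyclosporin A and tacrolimus block T cells by binding calcineurin through immunophilins. Because this switch acts on proteins, the RNA values below describe the supply of the parts and not the activity of the pathway.

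The measurement was the number of reads that crossed each exon-exon junction. The mock library held 1147232 junction reads on 97850 junctions and the stimulated library 1341197 on 97395. A gene's level was the sum over its junctions per 1000000 junction reads, and a gene was called higher or lower when the ratio of stimulated to mock was at least 2-fold with a 95% exact binomial interval that left out 1. Of 7204 genes with at least 20 reads, 1232 (17.1%) were called higher and 1805 (25.1%) lower. Their log2 ratios had a median of -0.21. The scaling bears on this split. With the trimmed mean of M values in place of the total, every log2 ratio shifts up by 0.24, and 1553 genes were higher and 1413 lower. The labelled cell type was compared with marker genes. All 11 genes of the CD4 T cell list had junctions, with 6507 mock and 8322 stimulated reads, or 5672 and 6205 per 1000000. Most of these genes are shared with other T cells, so their sum does not test the CD4 label. Cd4 itself had 650 and 285 reads. Markers of other cells were far lower. B cell genes were seen for 9 of 9 markers, with 195 reads per 1000000 in mock and 148 in stimulated cells, and red cell genes for 3 of 6, with 68.0 and 125. For the rest, 4 of 6 NK genes summed to 42.7 and 44.0, 7 of 12 myeloid and dendritic genes to 38.4 and 17.9, 1 of 2 CD8 genes to 13.9 and 3.73, and 1 of 3 platelet genes to 13.9 and 5.97. The NK sum joins opposite differences: Eomes had 7 mock and 36 stimulated reads, and Klrd1 had 38 and 20. Cd8a, Ncr1 and Pf4 had no named junction, which does not show that they were silent. The part of these other cells in the results was not tested. In a bulk library, fewer cells of a type and less RNA per cell cannot be told apart.

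Among the 10 members, 1 was called higher (Nfatc1), against 17.1% of all measured genes, and 5 were called lower (Nfatc2, Nfatc3, Ppp3ca, Ppp3cc and Rcan3), against 25.1%. Nfat5, Ppp3cb, Rcan1 and Cabin1 were called neither. The median log2 ratio of the members was -0.71, beside -0.21 for all measured genes. With the trimmed mean of M values as the scale, 2 members were higher and 4 lower: Rcan1 joined the higher side, at a log2 ratio of 1.60, and Ppp3ca left the lower side, at -0.98.

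**Figure D1:**
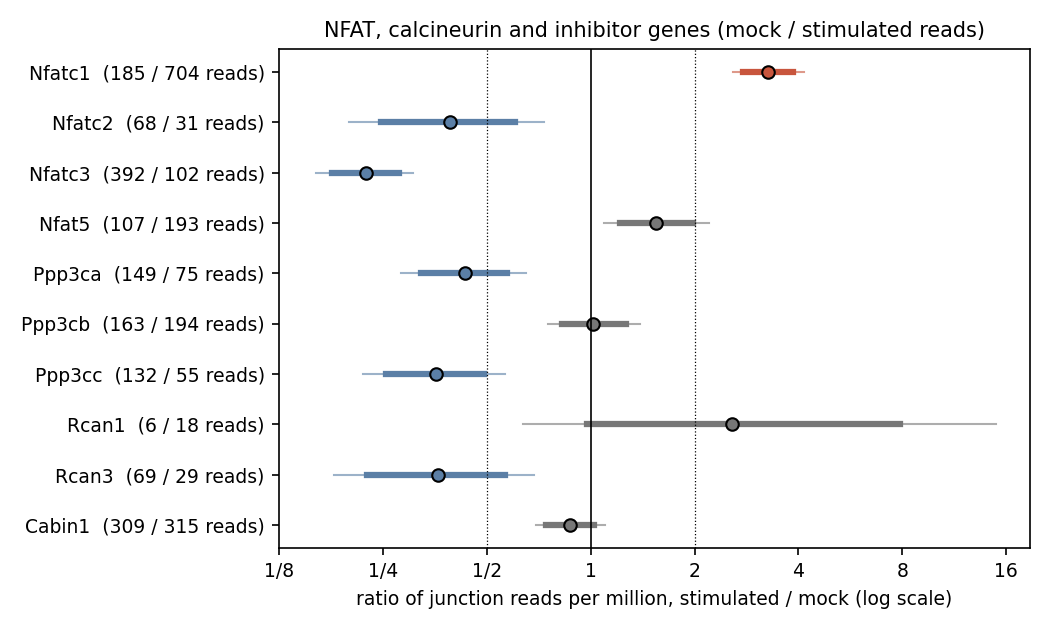
Ratio of junction reads per 1000000 in stimulated over mock cells for the 10 genes, on a log axis, with 95% exact binomial intervals as thick bars, the same widened by the spread between junctions as thin bars, dotted lines at 2-fold, and red, blue and grey for genes called higher, lower and neither. Nfatc1 lies at 3.26 while Nfatc3 lies lowest at 0.223, and the thick bars of Ppp3cb, Rcan1 and Cabin1 include 1.

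The NFAT factors differed in direction, with 1 called higher, 2 lower and 1 neither, beside 17.1% higher and 25.1% lower of all measured genes. Nfatc1, the factor best known for building up in activated T cells, had 185 junction reads in mock cells and 704 after stimulation. That is 161 and 525 reads per 1000000, a ratio of 3.26 (2.77 to 3.85) and a log2 ratio of 1.70. All 10 of its junctions had more reads per 1000000 after stimulation, with log2 ratios from 0.17 to 2.75. The junctions of Nfatc1 disagreed more than counting allows: their spread was 3.46 times the counting variance, where the figure over 4915 genes was 2.02. With the interval widened by the latter, the ratio of Nfatc1 still ran from 2.58 to 4.14.

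Nfatc3, a factor known for its part in the development of thymocytes, lay on the other side. It had 392 mock and 102 stimulated reads, or 342 and 76.0 per 1000000, which is 4.49-fold lower (3.60 to 5.64). Each of its 10 junctions with at least 10 reads was lower, with log2 ratios between -3.13 and -1.64. Its spread between junctions was 0.858 times the counting variance, which is no wider than counting error gives. Of all measured genes, 7.5% had a lower ratio than Nfatc3, while Nfatc1 stood at the 91.2 percentile.

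Nfatc2, the factor long described as preformed in resting T cells, had 68 mock and 31 stimulated reads, or 59.3 and 23.1 per 1000000. It was 2.56-fold lower (1.65 to 4.06), and its 3 junctions of at least 10 reads were all lower. Counts on single Nfatc2 junctions were small. Its intron 1 had 0 mock and 4 stimulated reads and its intron 10 had 9 and 0.

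Nfat5 lacks the calcineurin docking region of the other factors and is known for the response to osmotic stress. It had 107 mock and 193 stimulated reads, or 93.3 and 144 per 1000000, a ratio of 1.54 (1.21 to 1.97) that stayed under 2-fold. The excess was uneven along the transcript, from 15 and 42 reads at intron 5 and 13 and 38 at intron 13 to 26 and 25 at intron 15, the last. Of its 6 junctions with at least 10 reads, 5 were higher and 1 lower.

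Together the 4 NFAT genes had 656 reads per 1000000 in mock and 768 in stimulated cells, a ratio of 1.17 (1.07 to 1.29). Their makeup differed far more than their sum. Nfatc3 gave 52.1% (48.5 to 55.8) of these reads in mock cells and 9.9% (8.1 to 11.9) in stimulated cells, while Nfatc1 gave 24.6% (21.6 to 27.8) and 68.3% (65.4 to 71.2). Nfat5 gave 14.2% and 18.7%, and Nfatc2 9.0% and 3.0%.

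Levels can be set side by side between genes only per intron, since a gene with more introns collects more junction reads. By the median over its introns, Nfatc3 was the highest of the 10 members in mock cells, at 28.8 reads per 1000000 per intron (quartiles 26.2 and 45.3), followed by Nfatc1 at 16.6 (12.2 and 21.8). After stimulation Nfatc1 was the highest at 48.5 (26.1 and 58.9), Ppp3cb was next at 10.4, and Nfatc3 had 8.95 (4.47 and 11.2). The quartiles of Nfatc1 and Nfatc3 did not meet in either library. The other members ranged in mock cells from 1.74 for Rcan1 to 9.59 for Ppp3ca and Rcan3, with Nfatc2 at 6.10 and Nfat5 at 2.62.

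**Figure D2:**
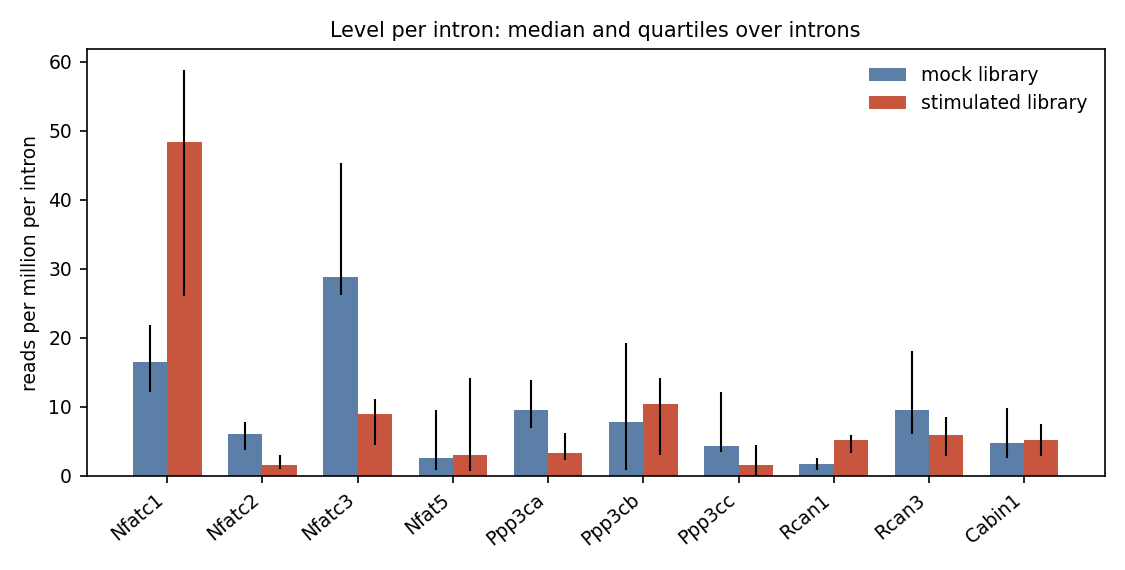
Level of each gene in mock and stimulated cells as reads per 1000000 junction reads per intron. Coloured bars are medians over a gene's introns and black lines span the quartiles over introns, which are not replicate error. Nfatc3 leads in mock cells at 28.8 and Nfatc1 in stimulated cells at 48.5.

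Nfatc1 is known to have an outer, inducible start and an inner start within the first intron, and to end at a proximal or a distal polyadenylation site, the proximal one giving the short protein. Its junctions bear on both ends. The gene lies on the minus strand of chromosome 18, and introns are counted here along a full-length GENCODE transcript of 9 introns. The junction that leaves the outer first exon, an intron of 13983 bp at chr18:80895396-80909378 (mm9), had 3 mock and 21 stimulated reads, a ratio of 5.99 (1.79 to 31.3). It gave 2.2% (0.5 to 6.2) of the reads of introns 1 to 7 in mock and 3.4% (2.1 to 5.1) in stimulated cells. These intervals overlap, so no difference from the gene body was detectable. No read in either library crossed the 9377 bp intron that leaves the inner first exon, a count whose upper limit is 2.62 reads per 1000000 in mock and 2.24 in stimulated cells.

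Further along, the body of Nfatc1 and its last exons differed in size of change. Introns 2 to 7 together had 135 mock and 597 stimulated reads, a ratio of 3.78 (3.13 to 4.59). Within them the reads were 14 and 65 at intron 2, 24 and 79 at intron 3, 7 and 55 at intron 4, 38 and 195 at intron 5, 27 and 129 at intron 6, and 25 and 74 at intron 7. Every intron of the body was thus higher after stimulation.

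The short Nfatc1 transcripts in the annotation end in exon 8 and so lack introns 8 and 9. Intron 8 had 19 mock and 25 stimulated reads, a ratio of 1.13 (0.595 to 2.16), and intron 9 had 28 and 61, a ratio of 1.86 (1.17 to 3.03). Introns 8 and 9 therefore gave 25.8% (19.6 to 32.8) of the reads over introns 2 to 9 in mock cells and 12.6% (10.2 to 15.3) in stimulated cells, and these intervals did not meet. Among 4536 genes with enough reads, 3.06% had a share of the last 2 introns that was lower after stimulation with intervals apart, and 5.42% had one that differed either way. That count used 1 form of each intron, whereas both forms of intron 9 are summed here for Nfatc1. The neighbouring introns alone did not separate: intron 8 gave 43.2% (28.3 to 59.0) of the reads of introns 7 and 8 in mock and 25.3% (17.1 to 35.0) in stimulated cells. Intron 9 gave 52.8% (38.6 to 66.7) of the reads of introns 7 and 9 in mock and 45.2% (36.6 to 54.0) in stimulated cells. Junction reads do not cover the extended exon 8 itself, so the short form was not counted directly.

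Intron 9 was spliced from a longer or a shorter exon 9. The longer form had 19 mock and 35 stimulated reads and the shorter 9 and 26, so the longer form gave 67.9% (47.6 to 84.1) and 57.4% (44.1 to 70.0). These shares were not distinguishable at this depth.

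**Figure D3:**
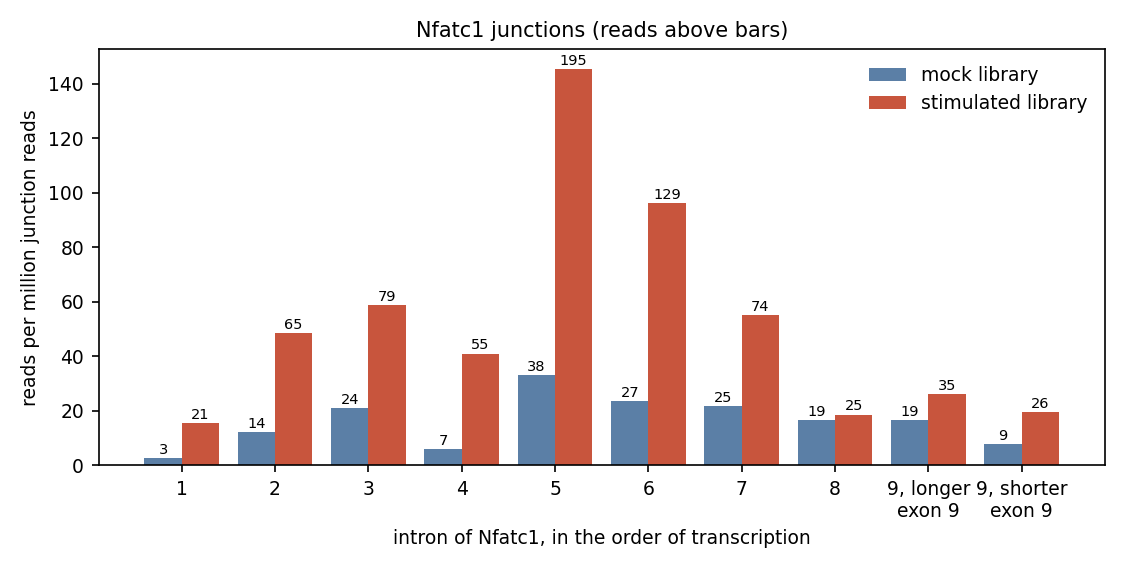
Reads per 1000000 junction reads on each Nfatc1 intron in mock and stimulated cells, in the order of transcription, with read counts above the bars. Introns 2 to 7 sum to 135 mock and 597 stimulated reads, and intron 7 alone has 25 and 74. Intron 8 has 19 and 25, and both forms of intron 9 together have 28 and 61.

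Among the 3 calcineurin catalytic subunits, 2 were called lower and 1 neither, beside 25.1% of all measured genes called lower. Ppp3ca encodes the alpha subunit, the main isoform of many tissues. It had 149 mock and 75 stimulated reads, or 130 and 55.9 per 1000000, and was 2.32-fold lower (1.75 to 3.11). Its 10 junctions with at least 10 reads were all lower, from -2.34 to -0.23 on the log2 scale. The smallest difference was at intron 5, with 16 and 16 reads, and the largest at intron 10, with 13 and 3.

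Ppp3cc, the gamma subunit best known from testis, had 132 mock and 55 stimulated reads, or 115 and 41.0 per 1000000. It was 2.81-fold lower (2.03 to 3.92), and its 6 junctions with at least 10 reads were all lower. Its most-read junction, intron 7, had 41 and 19 reads.

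Ppp3cb, the beta subunit, is the one whose loss in mice is known to impair T cell responses. It had 163 mock and 194 stimulated reads, or 142 and 145 per 1000000, a ratio of 1.02 (0.822 to 1.26). Of its 9 junctions with at least 10 reads, 4 were higher and 5 lower. The 3 catalytic subunits summed to 387 and 242 reads per 1000000, a ratio of 0.624 (0.539 to 0.722). Ppp3cb gave 36.7% (32.2 to 41.4) of their reads in mock cells and 59.9% (54.3 to 65.3) in stimulated cells, Ppp3ca 33.6% and 23.1%, and Ppp3cc 29.7% and 17.0%.

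**Figure D4:**
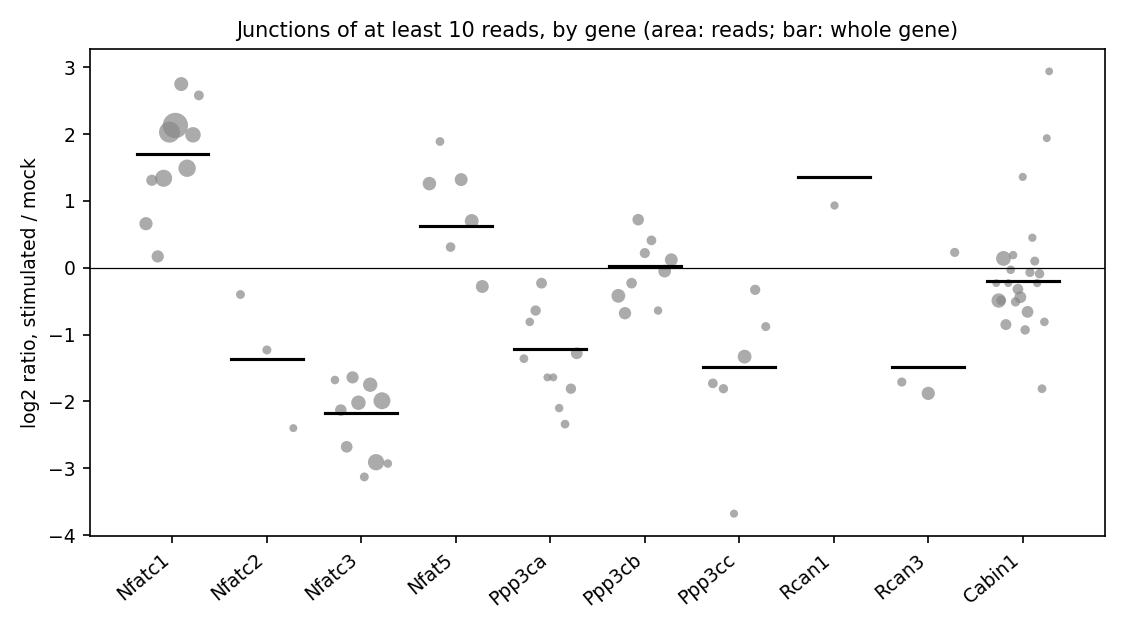
Log2 ratio of stimulated over mock reads per 1000000 for each junction with at least 10 reads over both libraries, by gene; circle area gives the reads and the bar the value of the whole gene. All circles of Nfatc1 lie above 0 and all of Nfatc2, Nfatc3, Ppp3ca and Ppp3cc below, while Ppp3cb and Cabin1 lie on both sides.

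All 3 catalytic subunit genes carry a 30-base exon, exon 13 of 14, near the end of the coding sequence, and its use separates the genes. The exon is shown because it can be told from junction reads alone. Capitals mark the exon and lower case the 15 bases on each side in the GENCODE M21 transcript, written 5′ to 3′ on the gene's strand.
Ppp3ca: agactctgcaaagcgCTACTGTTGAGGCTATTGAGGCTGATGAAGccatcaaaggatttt
Ppp3cb: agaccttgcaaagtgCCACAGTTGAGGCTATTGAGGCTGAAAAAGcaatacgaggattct
Ppp3cc: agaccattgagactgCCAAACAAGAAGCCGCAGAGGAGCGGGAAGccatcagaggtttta
The exons of Ppp3ca and Ppp3cb match at 26 of 30 bases. Ppp3cc matches Ppp3ca at 14 and Ppp3cb at 15.

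Despite that likeness the exon was left out of Ppp3ca and kept in Ppp3cb. In Ppp3ca only the skipping junction was seen, with 27 mock and 13 stimulated reads, which is 100% in mock (87.2 to 100) and in stimulated cells (75.3 to 100). In Ppp3cb, where the exon lies at chr14:21322469-21322498 (mm9, minus strand), the junction into it had 26 and 19 reads, the junction out of it 32 and 28, and the skipping junction 0 and 3. Skipping was thus 0.0% (0 to 6.2) of these Ppp3cb reads in mock and 6.0% (1.3 to 16.5) in stimulated cells, with intervals that overlap. An included exon can give reads at both of its junctions, so shares of this kind understate skipping. Per splice site, skipping in stimulated cells was 13.6% (2.9 to 34.9) at the donor before the exon. At the acceptor after it, skipping was 9.7% (2.0 to 25.8).

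In Ppp3cc the exon lies at chr14:70619824-70619853 (mm9, minus strand). The junction into it had 4 mock and 0 stimulated reads, the junction out of it 17 and 6, and a skipping junction that the annotation does not hold had 4 and 1. Skipping gave 16% (4.5 to 36.1) and 14.3% (0.4 to 57.9) of the Ppp3cc reads, shares that again understate it. At the donor before the exon, skipping took 4 of 11 mock reads and 1 of 1 stimulated read. At the acceptor after it, skipping took 4 of 21 and 1 of 7. No shift in the use of the exon was detectable between the libraries in any of the 3 genes.

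Ppp3cb also used both acceptors of exon 11, which are 3 bases apart. The capitals mark those 3 bases, kept in the longer form, between the end of exon 10 and the rest of exon 11.
Ppp3cb acceptor: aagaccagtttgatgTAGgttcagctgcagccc
The longer form of Ppp3cb (intron at chr14:21328723-21334744, mm9) had 11 mock and 15 stimulated reads. The shorter form (chr14:21328720-21334744) had 13 and 25. The shorter form gave 52.0% (31.3 to 72.2) and 62.5% (45.8 to 77.3), so the choice between them was not distinguishable.

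Across all members, 46 splice sites were shared by more than 1 junction. Of these, 8 sites, in Nfatc1, Nfatc3 and Ppp3cb, had at least 20 reads in each library, and at 0 of the 8 did the share of a junction differ with intervals apart, beside 2.01% of the 4174 sites tested in all genes. At the donor before it, Nfatc3 skipped an exon before its last in 75 of 83 mock reads and 22 of 24 stimulated reads. That is 90.4% (81.9 to 95.7) and 91.7% (73.0 to 99). At the acceptor after the exon, the skipping junction took 75 of 92 and 22 of 27 reads. That is 81.5% (72.1 to 88.9) and 81.5% (61.9 to 93.7). Both sites also hold junctions that the annotation does not. No shift at this Nfatc3 exon was detectable, with intervals that overlap.

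Of the 3 inhibitors of calcineurin, 1 was called lower and 2 neither, beside 25.1% of all measured genes called lower. Rcan3, a relative of Rcan1 that binds calcineurin through the same conserved motif, had 69 mock and 29 stimulated reads, or 60.1 and 21.6 per 1000000. It was 2.78-fold lower (1.78 to 4.45). The difference was not even over Rcan3: intron 3 had 41 and 13 reads and intron 4 had 14 and 5, whereas the main form of intron 1, at chr4:134981361-134989526 (mm9), had 8 and 11. Its spread between junctions was 3.87 times the counting variance, above that of 91.8% of the genes.

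Rcan1, also called DSCR1 or calcipressin, is a feedback inhibitor whose shorter form is started by NFAT from an inner promoter. It was the least read of the members, with 6 mock and 18 stimulated reads, or 5.23 and 13.4 per 1000000. The ratio of 2.57 had an interval from 0.976 to 7.90 and was not called. Intron 2 had 2 and 7 reads and intron 3 had 4 and 9, which both starts share. The junction leaving the outer first exon (chr16:92397682-92466077, mm9) had 0 and 2 reads, and the 2459 bp intron that leaves the inner first exon had 0 and 0.

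The start of Rcan1 that follows calcineurin could therefore not be read at this depth. The 250 bases before its inner start are shown because they carry the core letters bound by NFAT proteins, GGAAA or, on the other strand, TTTCC, in capitals (RefSeq, GRCm38.p6, chr16:92400079-92400328, minus strand).
Rcan1 inner start: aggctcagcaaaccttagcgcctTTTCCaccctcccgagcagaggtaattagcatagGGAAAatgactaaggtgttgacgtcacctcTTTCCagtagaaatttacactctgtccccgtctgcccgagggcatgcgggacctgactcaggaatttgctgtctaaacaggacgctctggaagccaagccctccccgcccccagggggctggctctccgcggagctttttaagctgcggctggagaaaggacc
The window of Rcan1 holds 3 matches, as many as or more than which 6.4% of 32851 mouse promoters of the same length hold, while 55.6% hold at least 1. The count is not particular to Rcan1: windows of Nfatc2 and Ppp3cb also hold 3. The outer start of Rcan1 has 0 matches. RefSeq promoters matched 7 of the 10 members. Such a match is a description of the letters and not of binding.

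Cabin1, a large nuclear protein that binds calcineurin and the MEF2 factors, had 309 mock and 315 stimulated reads over 40 junctions. That is 269 and 235 reads per 1000000, a ratio of 0.872 (0.743 to 1.02). Of its 23 junctions with at least 10 reads, 7 were higher and 16 lower. Cabin1 gave 80.5% of the reads of the 3 inhibitors in mock and 87.0% in stimulated cells, Rcan3 18% and 8.0%, and Rcan1 1.6% and 5.0%. These shares do not compare levels, since Cabin1 has 36 introns, Rcan3 4 and Rcan1 3. By the median per intron, Cabin1 had 4.79 mock and 5.22 stimulated reads per 1000000. Rcan3 had 9.59 and 5.97, and Rcan1 had 1.74 and 5.22.

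The other genes of the pathway are given as counts over lists, to be read beside the shares over all measured genes, 17.1% higher and 25.1% lower, and their median log2 ratio, -0.21. The lists, like the members, were chosen with earlier results of these data known. Of 16 listed calcineurin partners and regulators, 8 had enough reads: 3 were higher and 3 lower, and the median log2 ratio was 0.25. Ppp3r1, the regulatory B subunit that the catalytic subunits need, had 71 mock and 19 stimulated reads and was 4.37-fold lower (2.60 to 7.68). Calm3, a gene of calmodulin, which carries the calcium signal to calcineurin, had 4 and 52 reads, a ratio of 11.1 (4.09 to 42.3). Calm2 had 19 and 36, a ratio of 1.62 (0.905 to 2.99). Fkbp1a, the immunophilin that carries tacrolimus to calcineurin, had 80 and 273 reads, a ratio of 2.92 (2.27 to 3.79). Ppif, a mitochondrial cyclophilin, had 4 and 82, a ratio of 17.5 (6.59 to 65.9). Rcan2, Akap5 and Ppia, the cyclophilin that carries cyclosporin A, had no named junction. Naming needs 2 or more junctions that fit 1 transcript, so this does not show that these genes were silent.

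Of 25 listed NFAT kinases and genes of NFAT export, import and retention, which do not all oppose NFAT, 21 were measured: 2 were higher and 8 lower. Their median log2 ratio was -0.60, and genes called lower outnumber those called higher among all genes too. Under the trimmed mean scaling 3 were higher and 5 lower, where all genes gave 21.6% and 19.6%. Gsk3b, a kinase that rephosphorylates NFAT for export, had 231 mock and 99 stimulated reads and was 2.73-fold lower (2.15 to 3.49). Its relative Gsk3a, named after its values were seen, had 231 and 275, a ratio of 1.02 (0.852 to 1.22). The DYRK kinases, which prime NFAT for GSK3, also differed: Dyrk1b, likewise named afterwards, had 52 and 15 reads and was 4.05-fold lower (2.25 to 7.75), while Dyrk1a had 214 and 195 reads, a ratio of 0.779 (0.639 to 0.951). Csnk1a1, a casein kinase, had 437 and 628 reads, a ratio of 1.23 (1.09 to 1.39). Prkaca, a catalytic subunit of protein kinase A, had 63 and 11 reads and was 6.70-fold lower (3.50 to 14.1), and Map3k8, a kinase of the MAP kinase pathway, had 3 and 37. Kpnb1, which carries cargo into the nucleus, had 580 and 1598, a ratio of 2.36. Map3k8 and Kpnb1 were the 2 genes called higher.

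Upstream, of 20 listed genes of the calcium signal, 14 were measured: 2 were higher and 5 lower, and the median log2 ratio was -0.54, beside 17.1% higher, 25.1% lower and -0.21 for all genes. Plcg1, the phospholipase that starts the signal, had 697 mock and 259 stimulated reads and was 3.15-fold lower. Atp2a2, the pump that refills the store, had a ratio of 2.79, and Cracr2a, a regulator of the calcium release-activated channel, had 48 and 7 reads and was 8.02-fold lower (3.61 to 21). Stim1 and Stim2, the calcium sensors of the endoplasmic reticulum, were named after their values were seen. Stim1 had 299 and 59 reads and was 5.93-fold lower (4.47 to 7.97), whereas Stim2 had 67 and 138, a ratio of 1.76 (1.31 to 2.40), and was called neither.

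Of 39 listed NFAT target genes, 31 were measured: 21 were higher and 2 lower, beside 17.1% and 25.1% of all genes, and the median log2 ratio was 2.82. Il2, the growth factor of T cells, named after its values were seen, had 0 mock and 92 stimulated reads and was at least 26.2-fold higher when the mock library is given 3 reads. The chemokine gene Ccl4 had 2 and 449 reads. Dgka, a brake on diacylglycerol signalling, had 4712 and 740 and was 7.44-fold lower.

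The partners of single members were also counted, beside the same 17.1% higher and 25.1% lower over all genes. Of the 16 AP-1 and other partners with which NFAT binds DNA, 10 were measured, 6 of them higher and 2 lower, at a median log2 ratio of 1.17. The genes called higher include Tbx21, Foxp3 and Runx1, which are not AP-1 proteins. Fos, with 32 mock and 56 stimulated reads, was called neither, and Jun, Junb and Jund had no named junction. These genes were named after their values were seen. Atf3 had 2 mock and 96 stimulated reads, and Ets1 had 1572 and 316. Of 17 NFAT5 targets of osmotic stress, 7 were measured, with 2 higher and 1 lower and a median of 0.35. The amino acid transporter Slc7a5 had 49 and 1362 reads, and the phospholipase gene Pnpla6 had 119 and 29. Of 18 Cabin1 partners, 14 were measured, with 1 higher and 3 lower and a median of -0.47; with the trimmed mean 2 were higher and 2 lower. The acetyltransferase gene Ep300 had 564 and 338 reads, and the deacetylase gene Hdac2 had 103 and 263. Camk4, a kinase switched on by calcium and calmodulin, had 382 and 90 reads and was 4.96-fold lower. Nfatc4, the remaining calcineurin-dependent NFAT gene, had no named junction in either library. Listed genes without a named junction were not measured, which does not show that they were silent.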

How the data were processed

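Total RNA was extracted with TRIzol and sequenced, and reads were aligned to mm9 with TopHat, per the submitters' processing notes, which give no versions here. The authors deposited, for each library, a list of splice junctions whose score is the count of reads across the junction; no further normalization is recorded. The Cufflinks values were not used here.

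Junctions carry no gene name and no mm9 genome was used. Each was named from GENCODE M21 (GRCm38) by intron length and the spacing between junctions, with 2 or more junctions fitting 1 transcript at 1 offset; no coordinate was converted. Of 124183 junctions, 95520 (76.9%) were named, 236 fitted more than 1 gene and 28427 got no name. Naming and intervals were tested on simulated data. The simulated junctions came from the same annotation, moved by 1 offset per gene, and the simulated counts had counting error only. Differences between mm9 and GRCm38 and the wider spread between junctions were thus not covered. Reads per gene were summed per 1000000 junction reads (Python 3.11.15, scipy 1.17.1), without a pseudocount. Ratios have exact (Clopper-Pearson) 95% binomial intervals. Calls need 20 reads over both libraries, 2-fold and an interval without 1; 0 reads are set to 3 for a bound, and no fold is given where the other library has 3 or fewer. Junction reads are not unique molecules, so intervals and limits cover counting error only.

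The comparison was stimulated against mock, 1 library each, with no test between replicates. The members and gene lists were chosen with earlier results of these data known. All 10 members are named; of each list the text names the most-read gene, those of highest and lowest ratio and a set of calcineurin and NFAT partners; a gene named outside that rule is marked, and 1 gene that the rule names is not reported here. Alternatives changed the scaling, read minimum, fold, interval and junctions counted.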

Additional observations from a re-analysis of the deposited data

How the results depend on the processing

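Over the alternatives run, no value changed sign among the called genes. Using only the most-read junction gave log2 ratios of 2.13 for Nfatc1, -0.42 for Ppp3cb and 0.14 for Cabin1. Scaling by the trimmed mean of M values gave 0.04 for Cabin1, and the median over junctions gave 0.98 for Nfat5. The members called higher numbered 2 with either of those scalings (the trimmed mean or the median of ratios) and at 1.5-fold, and 0 at 4-fold, where 1 member was lower and, of all genes, 483 were higher and 633 lower. Ppp3ca missed the 2-fold limit under the trimmed mean (-0.98) and the median of ratios (-0.99). Rcan1 was already above 2-fold as reported. Under both of these scalings (1.60 and 1.58) its interval also left out 1, and it was called higher. By its most-read junction alone (12 and 6 reads), Nfatc2 was under the read minimum. The share of higher genes among the called was 40.6% as reported, 52.4% with the trimmed mean and 51.8% with the median of ratios. Depth limited Rcan1 and all exon shares. No paired analysis was possible because there was 1 library per group.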

Other observations

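Junctions inside the members' spans that got no name numbered 40, with 55 mock and 40 stimulated reads, or 3.36% and 2.28% of the reads there. In Ppp3cc they held 13.7% and 8.33%. One of them (chr14:70645796-70647376, mm9) has the same length as the named intron 5 of Ppp3cc, is displaced by 4 bases, and had 13 and 4 reads where the named one had 11 and 7. Nfatc1 had 8 such junctions, with 0 mock and 9 stimulated reads. The genes nearest to Nfatc1 in ratio, among 1206 genes of similar depth, were Dhx37 with 94 and 360 reads (ratio 3.28), Il2rg with 222 and 851 (3.28) and Ddx56 with 112 and 421 (3.21).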
